A study of Mus musculus with 40 samples.

Results

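The combined effect of high-fat diet (HFD) and pioglitazone (Pio) on liver gene expression was measured in mice that lacked PPARγ in their hepatocytes (KO). The comparison set 5 KO mice given HFD with Pio (HFD-Pio, mice 16 to 20) against 5 KO mice given unsupplemented control diet (control, mice 1 to 5). These 10 mice were chosen by their labelled genotype and treatment from the 40 mice of the study, whose other groups were KO mice given Pio or HFD alone and wildtype (WT) mice given the same 4 treatments. All mice were males of 5 months. The labels give the strain of every mouse as C57BL6/J, while the study's methods name it for the WT mice and describe the KO mice by their cross. KO mice carried loxP-flanked alleles of the PPARγ gene and a Cre transgene driven by the albumin promoter, which is active in hepatocytes, so that Kupffer cells, endothelial cells and other liver cells kept the gene. WT mice were C57BL6/J mice and not Cre-bearing littermates, so the transgene was present in both KO groups compared. Replicates were separate mice, and the sources used here give no litter, cage or sequencing batch. Poly-A RNA of whole liver was sequenced, and the values are counts of reads per gene, shown here as CPM, the count of a gene scaled to the size of its library after TMM normalization. The comparison addresses which effects of a fatty diet plus Pio, a thiazolidinedione that activates PPARγ, occurred in liver without the hepatocyte receptor.

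Cholesterol is made in hepatocytes from acetyl-CoA through the mevalonate pathway, squalene and a series of sterol intermediates. The genes of this pathway are controlled together by SREBP2, a membrane-bound transcription factor encoded by Srebf2 that is cut and sent to the nucleus when sterols in the endoplasmic reticulum are low. Insig proteins hold SREBP2 back when sterols are plentiful. Diet composition, feeding state and cholesterol intake are known to change the activity of this pathway in liver. PPARγ is a nuclear receptor best known from fat cells, and in liver it is known for promoting fat storage genes such as Cidec and Plin4.

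KO mice given HFD-Pio expressed more of many cholesterol synthesis genes than KO controls. Of the 41 genes that passed the test, 15 were on a list of cholesterol synthesis and uptake genes that also holds regulators. Of the 28 tested members of this list, 15 rose and 0 fell. The median log2 fold change of the list was 1.41, and that of all 12895 genes tested was 0.0078. Npc1l1, the intestinal cholesterol transporter, was on the list but did not pass the filter on low counts. Across all genes, 41 were called (0.318% of the genes tested), 29 higher (0.225%) and 12 lower (0.0931%). A gene counts as called, or as having risen or fallen, when its Benjamini-Hochberg adjusted p in the edgeR quasi-likelihood test did not exceed 0.05. Whole liver was sequenced, so fewer cells of a type and less RNA per cell cannot be told apart.

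Promoter sequences are shown for Hmgcs1, Nsdhl and Mvk, which rose together. RefSeq promoters on GRCm38.p6 were held for 12 of the 15 list members that rose, and Fdft1 and Sqle were not among them. The 250 bases before the transcription start held a CCAAT box, the 5 letters CCAAT read on either strand, in 11 of these 12 genes when the first listed promoter was taken. The same window held it in 33.8% of all 32851 promoters. Among all list members with a held promoter, called or not, it occurred in 18 of 21. The box was thus common across the list and not particular to the members that rose. Nuclear factor Y, which binds this motif, is known to act beside SREBP2. The exception was Dhcr7, whose first promoter held none and whose last listed promoter held 2. The sterol regulatory element, searched as TCACNCCAC on both strands after the values were seen, occurred in 1 of the 12 genes, Hmgcs1, and in 1.05% of all promoters. The E-box CACGTG occurred in 2 of 12 (6.02% of all), the D-box TTANGTAA in 0 (2.06%) and an exact DR1 repeat, the element bound by PPARγ with RXR, in 0 (0.0335%). The sequences below run 5′ to 3′ on the plus strand, which is the coding strand of all 3 genes. Capitals mark CCAAT boxes on either strand and, in Hmgcs1, the sterol regulatory element that begins 137 bases before the start. Bases inside a neighbouring protein-coding gene, Cetn2 beside Nsdhl and Mmab beside Mvk, were left out. The first region is chr13:119690101-119690350, the second chrX:72918412-72918520 and the third chr5:114444061-114444268.
Hmgcs1: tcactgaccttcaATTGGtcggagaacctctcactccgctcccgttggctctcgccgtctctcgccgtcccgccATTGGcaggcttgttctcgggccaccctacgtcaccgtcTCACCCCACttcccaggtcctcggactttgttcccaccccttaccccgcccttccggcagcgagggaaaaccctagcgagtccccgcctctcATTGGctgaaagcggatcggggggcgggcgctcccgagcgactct
Nsdhl: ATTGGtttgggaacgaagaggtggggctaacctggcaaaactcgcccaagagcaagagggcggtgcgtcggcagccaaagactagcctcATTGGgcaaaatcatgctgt
Mvk: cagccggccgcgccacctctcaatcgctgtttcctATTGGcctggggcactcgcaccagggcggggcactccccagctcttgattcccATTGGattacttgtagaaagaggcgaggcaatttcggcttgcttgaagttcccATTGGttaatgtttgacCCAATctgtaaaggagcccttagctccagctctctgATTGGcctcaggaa
Hmgcs1 thus holds 3 CCAAT boxes in the printed stretch, Nsdhl 2 and Mvk 5, and a match of letters does not show that a factor binds there.

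Libraries of the 10 mice held 21542958 to 28334251 counts, and the other 29 mice of the fit held 15788242 to 49857017. The first principal component of the 10 livers held 24.8% of the variance. It placed the 5 HFD-Pio mice between -21.9 and -2.07 and control mice 1 to 4 between 12.7 and 24.1, while control mouse 5 lay at -18.7, among the HFD-Pio mice. On the second component (18.9%) control mouse 5 stood apart at -37.5, beyond all other mice, which lay between -11.1 and 16.1. Without control mouse 5 the comparison called 44 genes, and 27 of the 41 stayed called. Among those that did not were Aqp4, Cyp3a11, P4hb and Stap1 of the lower genes and Srebf2, Pmvk, Lss, Insig1, Mmab, Smo, Mpv17l, Chic1 and 4732419C18Rik of the higher genes, with adjusted p from 0.0563 to 0.282 and the same signs. The summed level of 10 hepatocyte marker genes was 103400 to 132700 CPM in control and 100200 to 135400 CPM in HFD-Pio mice.

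The Pparg total over all exons was 7.64, 6.35, 3.65, 8.78 and 9.88 CPM in control mice 1 to 5 and 5.29, 9.59, 6.77, 6.11 and 8.41 CPM in HFD-Pio mice 16 to 20. The groups overlapped fully, with a log2 fold change of -0.01 (SE 0.22). The gene total includes exons outside the deleted part and RNA from other liver cells, so it does not measure the deletion.

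Hmgcs1 encodes cytosolic HMG-CoA synthase, an early enzyme of cholesterol synthesis (chr13:119690379-119708260, GRCm38). Its level was 129, 165, 258, 101 and 58.3 CPM in control mice 1 to 5. In HFD-Pio mice 16 to 20 it was 836, 478, 611, 700 and 727 CPM, so that the lowest HFD-Pio mouse exceeded the highest control mouse. The log2 fold change was 2.24 (SE 0.34, adjusted p = 0.000948).

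Sqle encodes squalene epoxidase, the first oxygen-requiring step of sterol synthesis (chr15:59315077-59331192). It stood at 30.5, 35.6, 79.7, 13.2 and 7.66 CPM in control and at 205, 106, 160, 139 and 186 CPM in HFD-Pio mice. The groups did not overlap, and the log2 fold change was 2.26 (SE 0.43, adjusted p = 0.00902). Msmo1, a sterol C4-methyl oxidase (chr8:64718139-64733792), was at 59.5, 49.8, 139, 37.1 and 28.9 CPM in control and at 310, 174, 215, 269 and 271 CPM in HFD-Pio mice. It rose by 1.98 on the log2 scale (SE 0.34, adjusted p = 0.00275). Control mouse 3 was the highest control for Hmgcs1, Sqle and Msmo1, and control mouse 5 the lowest.

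Nsdhl, which acts with Msmo1 in removing the C4 methyl groups (chrX:72918557-72958514), was at 30.5, 38.1, 67.8, 15.9 and 11.2 CPM in control and at 120, 105, 119, 132 and 142 CPM in HFD-Pio mice. Its log2 fold change was 1.92 (SE 0.35, adjusted p = 0.0044). Mvk, mevalonate kinase (chr5:114444269-114460591), was at 11.9, 10.7, 24.6, 9.00 and 6.89 CPM in control and at 45.4, 27.5, 39.8, 43.7 and 39.1 CPM in HFD-Pio mice. Its log2 fold change was 1.63 (SE 0.25, adjusted p = 0.000948). Neither gene overlapped between the groups.

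**Figure D1:**
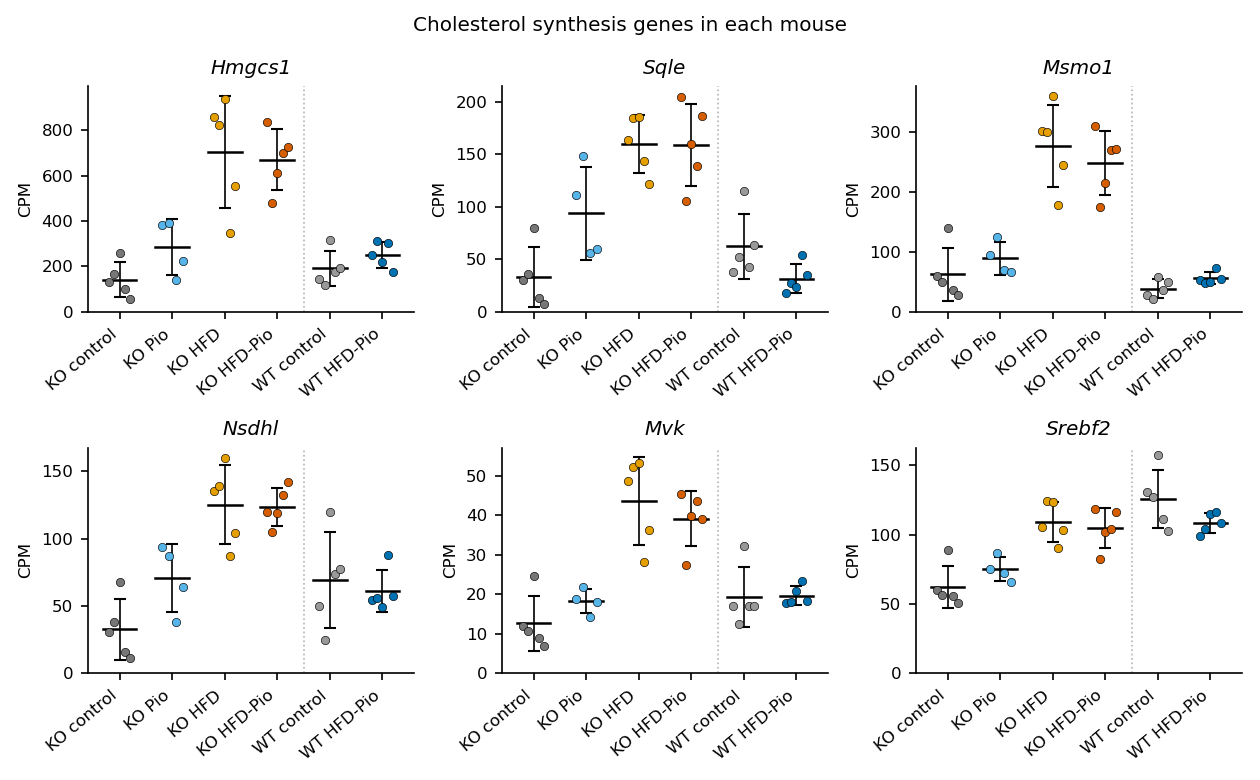
Level of 6 cholesterol synthesis genes in each mouse, in CPM on linear axes that start at 0. Points are mice, horizontal lines group means and error bars 1 SD (n = 5, and 4 in KO Pio), with KO groups left and WT groups right of the dotted line. KO HFD-Pio and KO HFD mice lie above KO controls apart from the highest control mouse in Srebf2, with Hmgcs1 at 478 to 836 CPM in KO HFD-Pio and 58.3 to 258 CPM in KO control mice, while WT HFD-Pio mice lie in or near the range of WT controls.

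Enzymes from several stages of the route were called higher. In the mevalonate part, Idi1 (isopentenyl diphosphate isomerase) had a log2 fold change of 2.17 and Pmvk (phosphomevalonate kinase) of 1.46. In the squalene and sterol part, Fdft1 (squalene synthase) had 1.46, Lss (lanosterol synthase) 1.39, Cyp51 (lanosterol demethylase) 1.71, Hsd17b7 (a sterol ketoreductase) 1.45 and Dhcr7 (the last step of one branch) 1.47. All of these were called, with adjusted p from 0.00114 for Hsd17b7 to 0.0362 for Pmvk. These 7 genes, Srebf2 and Insig1 include members outside the rule for named genes, given because they are list members that were called. Idi1 was a low gene, at 0.418 to 3.86 CPM in control and 5.91 to 8.66 CPM in HFD-Pio mice.

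Regulators had smaller log2 fold changes. Srebf2 was at 60.0, 56.5, 88.8, 55.5 and 50.5 CPM in control and at 119, 82.5, 102, 104 and 117 CPM in HFD-Pio mice, so that only control mouse 3 reached the lower edge of the HFD-Pio range. Its log2 fold change was 0.75 (SE 0.16, adjusted p = 0.0223), and the adjusted p was 0.0649 without control mouse 5. Insig1, a target of SREBP2 that restrains it, had a log2 fold change of 1.23 (adjusted p = 0.031, and 0.074 without control mouse 5).

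Of the members that were not called, 10 are given here by their log2 fold change. Fdps (1.43), Mvd (1.59), Acat2 (0.88), Tm7sf2 (0.84) and Sc5d (0.76) had values of at least 0.76. Smaller values were found for Stard4 (0.44), Ebp (0.34) and Lpin1 (0.26), and Ggps1 (-0.01) and Insig2 (-0.45) were below 0. Groups did not overlap, with all HFD-Pio mice above all control mice, in 18 of the 28 members, against 245 of all genes tested (1.9%). The opposite arrangement was seen in 0 members and in 255 of all genes (1.98%).

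The count of called list members was 10 to 18 when any 1 of the 39 mice was left out, with 10 without control mouse 5 and 18 without control mouse 3. It was 17 with DESeq2 and 23 with limma, but 7 when KO Pio mouse 13 was put back into the fit and 3 when the fit held only the 10 mice compared. The direction of each of the 15 genes held in every one of these settings.

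Of the other 14 called genes that rose, Csad encodes the enzyme that makes hypotaurine, the precursor of taurine used to conjugate bile acids. It was at 49.3, 51.4, 42.7, 107 and 86.0 CPM in control and at 256, 144, 238, 164 and 180 CPM in HFD-Pio mice, with a log2 fold change of 1.55 (SE 0.31, adjusted p = 0.0139). Fmn1, a formin that nucleates actin filaments, was at 2.93 to 6.75 CPM in control and 12.0 to 23.4 CPM in HFD-Pio mice, with a log2 fold change of 1.80 (SE 0.35, adjusted p = 0.00986). In both genes every HFD-Pio mouse lay above every control mouse.

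The remaining 12 genes were outside the rule for named genes and were chosen after their values were seen. Nab2 (1.43, a corepressor of EGR factors), Tlcd2 (1.16), Sort1 (0.92, sortilin, which sorts lipoproteins), Mmab (0.86, an enzyme of vitamin B12 metabolism that shares its promoter region with Mvk), Tmco6 (0.92), Chic1 (0.90), Mpv17l (0.72), Smo (0.72, the signal transducer of the hedgehog pathway), 4732419C18Rik (0.78), Uba7 (0.45), Colgalt2 (1.43) and Zfp941 (1.44) were all called higher, the number being the log2 fold change. Of the 41 called genes, 36 had groups that did not overlap. Among all genes tested, the HFD-Pio mice lay wholly above the controls in 245 (1.9%) and wholly below in 255 (1.98%). The 41 genes were selected by a test on the same mice, so their count without overlap is not a separate result. Colgalt2 and Zfp941 were near the floor, with control means of 0.38 and 0.54 CPM. Several of the genes that rose overlap another annotated gene, among them Hmgcs1 (Gm48342), Cyp51 (Akap9), Fdft1 (Ctsb), Csad (Zfp740), Tmco6 (Ndufa2) and Nab2 (Stat6 and Nemp1). Among the genes that fell, Apoa4, Irs1 and Tmcc1 also overlap another annotated gene. The study counted only unambiguous reads. Whether the counting used strand is not given in the sources used here, so whether reads over shared bases were kept or lost is not known.

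Of the 12 genes that fell, Cyp3a11 and Irs1 were on pathway lists. Apoa4 encodes apolipoprotein A-IV, a lipid-binding secreted protein of liver and intestine (chr9:46240696-46243459). It was at 314, 362, 490, 153 and 1311 CPM in control mice 1 to 5 and at 92.9, 97.7, 74.9, 51.4 and 65.3 CPM in HFD-Pio mice. Every HFD-Pio mouse was below every control mouse, and the log2 fold change was -2.78 (SE 0.47, adjusted p = 0.00275). Without control mouse 5, the highest, it was -2.11 with an adjusted p of 0.0109.

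Cyp3a11 is a major drug-metabolizing cytochrome of mouse liver (chr5:145854426-145879964). It was at 405, 367, 281, 373 and 565 CPM in control and at 81.4, 108, 108, 108 and 73.1 CPM in HFD-Pio mice. The groups stood well apart, with a log2 fold change of -2.06 (SE 0.44, adjusted p = 0.0265), and the adjusted p was 0.0563 without control mouse 5. Cyp3a11 belongs to a family of close paralogs, and reads that align to several members were not counted. Aqp4, a water channel, was at 5.54, 6.17, 7.34, 6.34 and 19.4 CPM in control and at 1.96, 2.84, 1.01, 2.52 and 2.52 CPM in HFD-Pio mice. Its log2 fold change was -2.05 (SE 0.41, adjusted p = 0.0127), and -1.55 with an adjusted p of 0.0689 without control mouse 5.

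Lepr, the leptin receptor (chr4:101717404-101815352), was at 16.1, 16.4, 25.3, 11.0 and 8.80 CPM in control and at 3.06, 4.36, 7.29, 3.59 and 6.58 CPM in HFD-Pio mice. The groups did not overlap, and the log2 fold change was -1.64 (SE 0.36, adjusted p = 0.0316). Irs1, an adaptor of the insulin receptor (chr1:82233101-82291416), was at 41.0, 36.4, 34.3, 35.9 and 22.4 CPM in control and at 18.0, 18.4, 19.6, 25.6 and 11.3 CPM in HFD-Pio mice. Control mouse 5 lay inside the HFD-Pio range, and the log2 fold change was -0.87 (SE 0.18, adjusted p = 0.0223). P4hb, the protein disulfide isomerase of the endoplasmic reticulum (chr11:120560298-120573253), was at 1303, 1264, 1512, 1563 and 1621 CPM in control and at 891, 1013, 1033, 1062 and 1154 CPM in HFD-Pio mice. Its log2 fold change was small at -0.50 (SE 0.11, adjusted p = 0.0333), yet the groups did not overlap, and without control mouse 5 the adjusted p was 0.084.

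Dnajb4, a co-chaperone of HSP70, had a log2 fold change of -0.54 with all 5 HFD-Pio mice (29.4 to 35.5 CPM) below all controls (39.8 to 53.0 CPM). Tmcc1 (-0.53), an endoplasmic reticulum protein, and Lrrc28 (-0.77) were also called lower. The remaining 3 called genes, Nr4a2 (-1.45, an orphan nuclear receptor), Muc6 (-1.02, a secreted mucin) and Stap1 (-1.91, an adaptor protein), had mean levels below 5 CPM. They fell outside the rule and were chosen after their values were seen.

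**Figure D2:**
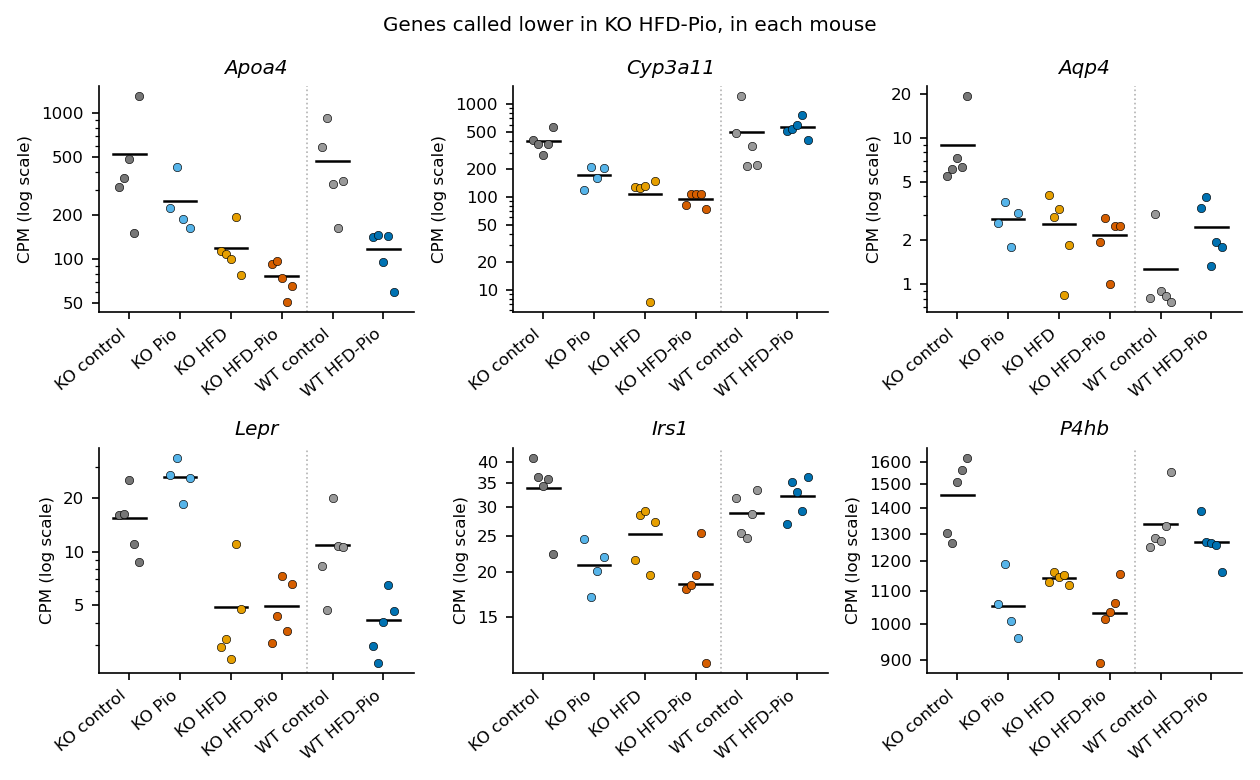
Level of 6 genes called lower in KO HFD-Pio mice, in CPM on logarithmic axes. Points are mice and horizontal lines arithmetic group means, with KO groups left and WT groups right of the dotted line. Apoa4 was at 51.4 to 97.7 CPM in KO HFD-Pio and 153 to 1311 CPM in KO control mice, the highest value being control mouse 5, and the mean of Lepr was lower in both HFD groups of KO mice than in KO control and highest in KO Pio mice.

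Listed chaperones and other genes of the unfolded protein response lay lower as a group without an edgeR call. P4hb and Dnajb4, described above and called lower, were not on this list. With edgeR, 0 of 38 tested list members were called, 26 had an unadjusted p under 0.05 with a lower level, and 0 with a higher level, where 879 of all 12895 genes had such a p in either direction. The median log2 fold change of the list was -0.53, with 34 members below 0. All HFD-Pio mice were below all controls in 20 of the 38 members and in 255 of all genes (1.98%). Calls depended on the tool, with 11 lower members in DESeq2 and 22 in limma. In KO mice given Pio alone, against the same controls, edgeR called 5 members lower, with a list median of -0.51. There, 23 members were lower at an unadjusted p under 0.05. For HFD alone the median was -0.24, with 0 called and 5 lower at that threshold. In WT mice HFD-Pio against control called 6 of the 38 members lower (4.89% of all genes) and 0 higher, with a median of -0.14. The difference between the KO and WT effects called 1 member, lower in KO.

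Derl3, a factor of endoplasmic reticulum protein degradation, had the smallest p of the list. It was at 5.50, 3.08, 8.94, 30.5 and 8.87 CPM in control and at 1.2, 0.639, 1.13, 2.60 and 3.20 CPM in HFD-Pio mice, with a log2 fold change of -2.68 (SE 0.64) and an adjusted p of 0.0543. Hspa5, the main chaperone of the endoplasmic reticulum, was at 965, 862, 1254, 1460 and 1101 CPM in control and at 775, 654, 740, 630 and 708 CPM in HFD-Pio mice (log2 fold change -0.69, adjusted p = 0.284). Hspa5 and the following 2 were picked after their values were seen. Pdia4 had a log2 fold change of -0.67 and Hyou1 of -0.81, with adjusted p of 0.0602 and 0.073.

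Fat metabolism lists had 0 called members in KO mice with edgeR. For fatty acid oxidation and ketogenesis, the targets best known for PPARα, 0 of 51 were called with a median of -0.09. Cyp4a14, its member with the smallest p, was at 29.1, 36.5, 733, 810 and 531 CPM in control and at 98.5, 109, 114, 150 and 97.0 CPM in HFD-Pio mice, so the controls split widely on both sides of the HFD-Pio mice (adjusted p = 0.211). At an unadjusted p under 0.05, 1 member of this list was higher and 4 were lower, and limma called 1 while DESeq2 called 0.

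Fatty acid synthesis and desaturation had 0 of 23 called (median 0.05), with 5 higher and 0 lower at an unadjusted p under 0.05. The smallest p belonged to Tmem97, a sterol-responsive membrane protein, with a log2 fold change of 0.42 and an adjusted p of 0.404. Triglyceride synthesis had 0 of 17 called (median 0.16), with 1 higher at an unadjusted p under 0.05. The smallest p was that of Acsl3, an acyl-CoA synthetase, with a log2 fold change of 0.75, an adjusted p of 0.42 and no overlap between the groups. Lipid droplet coat and lipolysis genes had 0 of 16 called (median -0.04), with 1 higher and 1 lower at an unadjusted p under 0.05, and Hsd17b13, a droplet-bound dehydrogenase, at -0.46 (adjusted p = 0.161). For these 3 lists limma called 3, 1 and 2 members and DESeq2 0, 0 and 1.

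Among the other lists, glycolysis and gluconeogenesis had 1 of 37 called, Irs1, and xenobiotic metabolism 1 of 66, Cyp3a11, each lower. Bile acid synthesis and transport (0 of 38, median -0.03) was led by Slco1a4, an organic anion transporter, at -1.09 (adjusted p = 0.388). Circadian clock genes (0 of 23, median -0.03) were led by Noct, the clock output gene for nocturnin, at -1.48 (adjusted p = 0.0769). Noct was highest in control mouse 5, at 227 CPM against 49.6 to 81.4 CPM in the other controls, and its value was -0.95 without that mouse. Immediate early genes (0 of 20, median 0.33) were led by Fos, at 1.71 to 11.2 CPM in control and 4.92 to 27.8 CPM in HFD-Pio mice (log2 fold change 1.81, adjusted p = 0.128).

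Genes of oxidative phosphorylation were level, with 0 of 78 nuclear genes called, a median of 0.01 and a range from -0.10 to 0.30, and Ndufb3 at 0.30 (adjusted p of 1.0). Mitochondrially encoded messenger RNAs had 0 of 7 called (median 0.10), with mt-Nd5 at 0.15. Acute-phase and complement genes had 0 of 43 called (median 0.02). Their leading member Socs3, an inhibitor of cytokine signalling, was at 249 CPM in HFD-Pio mouse 20 and at 13.2 to 26.0 CPM in the other HFD-Pio mice. Male-biased and growth hormone axis genes had 0 of 37 called (median 0.47), led by Stat5a at 0.58 (adjusted p = 0.196), and cell cycle genes 0 of 31 (median 0.06), led by Rrm2 at -0.47 (adjusted p = 0.612). For these lists without an edgeR call, limma called 1 bile acid, 3 clock, 5 immediate early, 0 oxidative phosphorylation, 0 mitochondrially encoded, 0 acute-phase and 3 male-biased members, and 1 of the cell cycle list. DESeq2 called 1 clock, 1 immediate early and 1 male-biased member and 0 of the others. At an unadjusted p under 0.05, higher and lower members numbered 1 and 4 for bile acid, 0 and 3 for clock, 5 and 0 for immediate early, 1 and 0 for acute-phase, 8 and 1 for male-biased and 0 and 1 for cell cycle genes, and 0 for both mitochondrial lists.

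**Figure D3:**
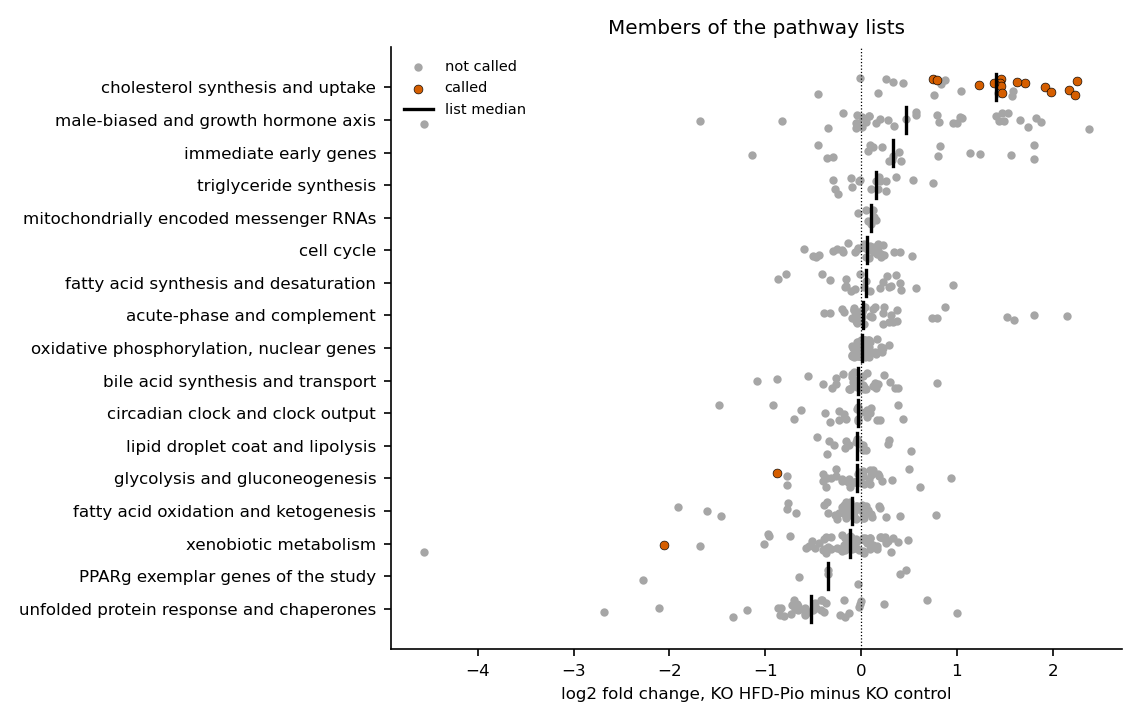
Log2 fold change of each tested member of the pathway lists, KO HFD-Pio minus KO control. Points are genes, coloured where called, black bars are list medians, and lists are ordered by median. The cholesterol list (median 1.41, 15 called) lies furthest to the right and the unfolded protein response and chaperone list (median -0.53, 0 called) furthest to the left.

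Each single treatment was set beside the combination. These comparisons share the control mice and are not independent of each other. HFD alone against control called 50 genes (0.388%), 11 of the 28 list members among them, all higher, with a list median of 1.01. Among the KO HFD mice, mouse 9 had neutrophil markers at 566 CPM against 3.01 to 26.6 CPM in the others, and 6 of 7 tested neutrophil markers were called higher for HFD. KO HFD mouse 10 had pancreatic acinar markers at 893 CPM against 6.08 to 28.3 CPM and skeletal muscle markers at 21.7 CPM against 0.367 to 0.57 CPM. HFD called 27 genes without mouse 9 and 37 without mouse 10, and 11 list members in each of these fits, with list medians of 1.17 and 1.09. Pio alone, with 4 mice, called 66 genes (0.512%) and 0 list members, with a list median of 0.64, 28 members above 0 and 15 higher at an unadjusted p under 0.05. In the study's own limma analysis, cholesterol homeostasis headed the gene sets enriched among genes that Pio induced in KO mice on control diet. The 0 calls here therefore do not mean that Pio alone left these genes unchanged. Hmgcs1 was at 857, 823, 937, 346 and 553 CPM in KO HFD mice 6 to 10 and at 381, 391, 141 and 226 CPM in KO Pio mice 11, 12, 14 and 15. Its log2 fold changes were 2.24 for HFD-Pio, 2.31 for HFD and 1.00 for Pio.

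Among the genes that fell, Apoa4 had log2 fold changes of -2.78 for HFD-Pio, -2.14 for HFD and -1.06 for Pio. Dnajb4 followed another order, with -0.54, -0.49 and -0.76, and was called in all 3. Csad had 1.55, 1.05 and 1.44, and was called for HFD-Pio and Pio. Lepr was at 2.93, 3.25, 2.50, 11.1 and 4.79 CPM in KO HFD mice and at 27.0, 33.7, 18.6 and 25.9 CPM in KO Pio mice, with log2 fold changes of -1.66 for HFD and 0.76 for Pio.

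No gene passed the test for an effect of Pio added to HFD. HFD-Pio against HFD called 0 genes (0%) with edgeR, while 218 had an unadjusted p under 0.05, DESeq2 called 9 and limma called 0. The difference was -0.07 for Hmgcs1 (SE 0.32) and -0.01 for Sqle (SE 0.41), and the list median was 0.05. HFD-Pio against Pio called 12 genes (0.0931%). Lepr was among them, with a log2 difference of -2.40 (SE 0.38, adjusted p = 0.00417). So was Cyp7a1, the rate-limiting enzyme of bile acid synthesis, at 2.08 (adjusted p = 0.0422). Pnpla3, a lipid droplet acylhydrolase, had -3.54 (adjusted p = 0.0375). Cyp7a1 and Pnpla3 did not differ from control detectably after HFD-Pio, with log2 fold changes of 0.80 and -0.28, and were chosen after their values were seen.

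The departure of the combination from the sum of both single effects was tested in the same model. It called 0 genes (0%) with edgeR, while 610 had an unadjusted p under 0.05, limma called 45 and DESeq2 0. For the cholesterol list the median departure was -0.56 on the log2 scale, with 25 of 28 members below 0 and 5 lower at an unadjusted p under 0.05. Hmgcs1 had -1.07 (SE 0.47) and Sqle -1.50 (SE 0.60), neither called (adjusted p = 0.992 and 0.928).

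In WT mice the same treatment called 1308 genes (10.1%) with edgeR, 678 higher (5.26%) and 630 lower (4.89%), against 41 in KO mice. Both counts depended strongly on the tool and on the mice fitted, as given in the last section. With edgeR, 0 of 28 list members were called higher and 2 lower, Fdps (-1.27) and Lpin1 (-1.01), and the list median was -0.16. Sqle was at 37.5 to 115 CPM in WT control and 18.0 to 53.8 CPM in WT HFD-Pio mice. Each genotype was deposited as its own table, which means a level difference between KO and WT could belong to either, and so effects and not levels are compared.

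The difference between the KO and WT effects called 329 genes (2.55%), 134 with the higher effect in KO (1.04%) and 195 with the lower (1.51%). It called 16 of the 28 cholesterol genes, all higher in KO, with a median difference of 1.5. Sqle had the largest difference of the list at 3.24 (SE 0.59, adjusted p = 0.00177), with 2.26 in KO and -0.99 in WT. Dhcr7 differed by 2.16 (SE 0.36, adjusted p = 0.000565), Nsdhl by 2.10 (adjusted p = 0.011) and Hmgcs1 by 1.84 (adjusted p = 0.0219). Msmo1 differed by 1.45 with an adjusted p of 0.0988. The same test called 25 of the 51 fatty acid oxidation and ketogenesis genes, all with the lower effect in KO (median difference -0.87). In WT mice HFD-Pio called 34 of these 51 higher (5.26% of all genes) and 1 lower, with a median of 0.83.

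Of the 41 genes called in KO mice, 23 were called for this difference, against 2.55% of all genes tested. Each had the KO effect further in its own direction. The difference holds the same KO values by which the 41 were selected, so neither the count nor the shared direction is a separate result. Aqp4 had -2.05 in KO and 1.00 in WT, a difference of -3.04 (adjusted p = 0.00265). Cyp3a11 had -2.06 and 0.18, a difference of -2.23 (adjusted p = 0.0389), and Irs1 -0.87 and 0.15, a difference of -1.03 (adjusted p = 0.0215). Apoa4, Lepr, Tlcd2, Mpv17l and Chic1 were called in the same direction in WT. For Apoa4 the values were -2.78 and -2.0, and for Lepr -1.64 and -1.41, with no detectable difference (adjusted p = 0.564 and 0.871).

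**Figure D4:**
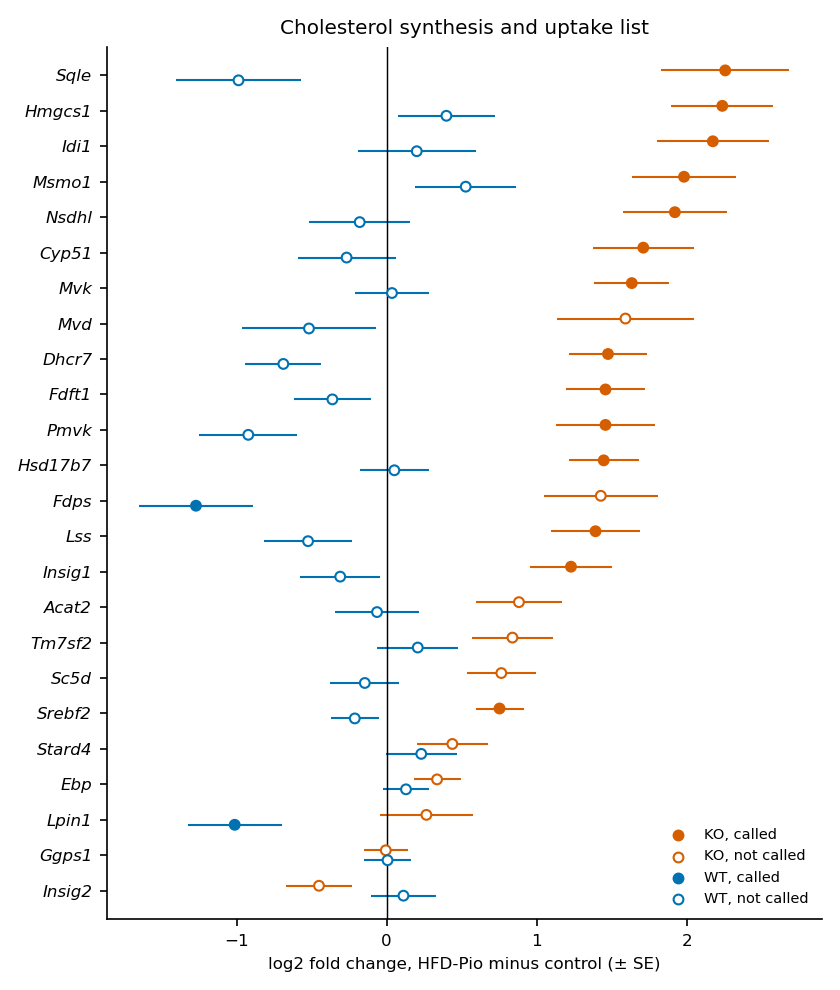
Log2 fold change, HFD-Pio minus control, of 24 of the tested members of the cholesterol list in KO (orange) and WT (blue) mice, with bars of 1 SE. Filled points were called. In KO mice 22 of the 24 members shown lie above 0 and 14 are filled, while in WT mice 10 lie above 0 and the 2 filled points, Fdps and Lpin1, lie below.

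Genes known to respond to PPARγ in liver were examined in both genotypes. Of 7 genes that the study used as exemplars of published PPARγ regulation, 0 were called in KO mice with edgeR, 1 had an unadjusted p under 0.05 (Plin4), and limma and DESeq2 called 0. In WT mice 5 were called higher. Plin4, a lipid droplet coat protein, was at 5.23, 6.20, 8.89, 11.5 and 8.42 CPM in KO control and at 6.63, 4.60, 3.87, 2.41 and 8.16 CPM in KO HFD-Pio mice. In WT mice it was at 16.3 to 23.8 CPM in control and 75.9 to 167 CPM in HFD-Pio mice. The effects were -0.64 in KO and 2.59 in WT, and differed by -3.23 (SE 0.39, adjusted p = 7.37e-06).

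Cfd (adipsin) was at or below 1.32 CPM in all 10 KO mice and at 83.5 to 476 CPM in WT HFD-Pio mice, against 0.459 to 3.85 CPM in WT controls. Cidec, which fuses lipid droplets, had -0.34 in KO and 2.60 in WT, Cd36, a fatty acid carrier, -0.03 and 1.77, and Mogat1, a monoacylglycerol acyltransferase, -0.34 and 2.66, all 3 called for the difference. Fabp4 (0.47 and 1.4) and Cav1 (0.40 and 0.42) were called in neither genotype. The smallest p for the difference also fell on Pknox2 (0.12 in KO and 3.15 in WT), Vnn1 (-0.68 and 2.48), Serpinb1a (-0.73 and 4.02) and Sh3bgrl2 (-0.21 and 1.02).

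**Figure D5:**
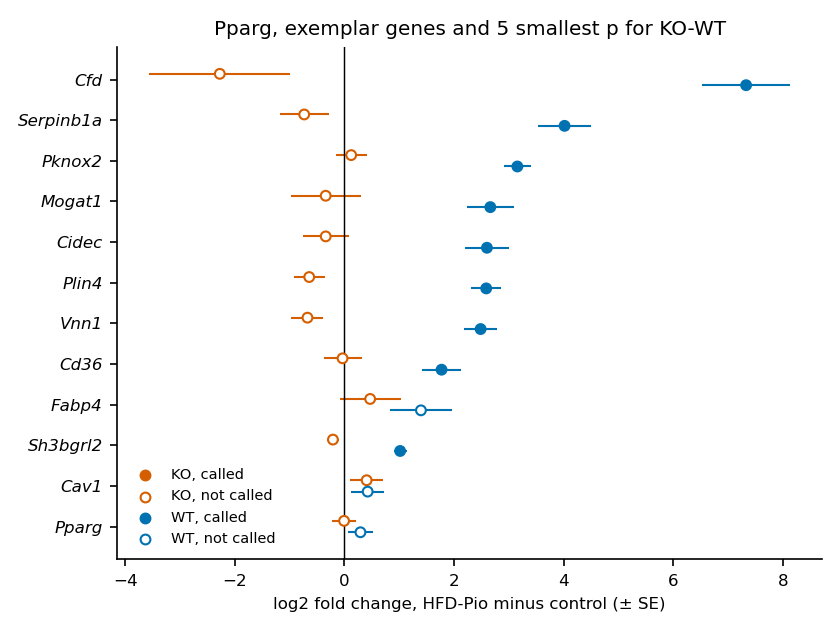
Log2 fold change, HFD-Pio minus control, of Pparg, the 7 exemplar genes and the genes with the 5 smallest p for the KO-WT difference (Plin4 belongs to both), in KO (orange) and WT (blue) mice, with bars of 1 SE. Filled points were called. All KO points are open, and WT points run from 0.29 for Pparg to 7.33 for Cfd.

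The summed markers of several other cell types were higher in HFD-Pio mice, and their part in the results was not tested. Among the 7 tested neutrophil markers 0 were called, and the sum of 9 was 5.23 to 6.99 CPM in control and 7.06 to 20.6 CPM in HFD-Pio mice, all of them above all controls (two-sided exact permutation p = 0.00794, the smallest possible; 11 lists compared without adjustment). Adipocyte markers summed to 24.6 to 33.4 CPM in control and 32.6 to 47.2 CPM in HFD-Pio mice, endothelial markers to 327 to 409 and 390 to 449 CPM, and pancreatic acinar markers to 6.09 to 19.1 and 14.6 to 25.7 CPM, with exact permutation p of 0.0238, 0.0317 and 0.0397. Only 5 of 10 adipocyte and 1 of 14 acinar markers passed the filter on low counts, against 10 of 10 endothelial markers, and 0 were called. Of the 5 adipocyte markers, 3 had a log2 fold change above 0 and 2 below. Sums of Kupffer cell, lymphocyte, stellate cell, cholangiocyte, red blood cell and skeletal muscle markers had exact permutation p between 0.127 and 0.992. The acinar genes Prss1 and Amy2a5 and the muscle genes Ckm and Myh1 were at 0 in all 10 mice. Hepatocyte markers had an exact permutation p of 0.976.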

How the data were processed

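Per the labels, poly-A RNA of whole liver from 40 male mice of 5 months was sequenced, 1 library per mouse. The authors aligned reads with STAR 2.0.4b to GRCm38 and counted uniquely aligned reads with Subread featureCounts 1.4.5, and deposited whole-number counts per gene in a KO and a WT table. The authors tested them with limma after TMM normalization. The strand setting is not given in the sources used here.

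Repeated gene lines were dropped, 355 rRNA genes were removed, and 40594 genes in both tables were joined. KO Pio mouse 13 was left out by the rule that defined the comparison, not by a quality test made here. With it in the fit, 10 of the 41 called genes stayed called. The other 39 mice in 8 groups were fitted together with edgeR 4.0.16 (R 4.3.3) with TMM normalization and robust quasi-likelihood. The filter on low counts asked for 1 CPM or more in 5 or more mice, which kept 12895 genes and removed 27344. P-values were adjusted by Benjamini-Hochberg over all genes tested, and called genes had an adjusted p of at most 0.05. limma 3.58.1 with sample weights, DESeq2 1.42.0 and other settings were alternatives, and those leaving out mice of the groups not compared were chosen after seeing the data. Marker sums were compared by two-sided exact permutation tests, which cannot go below 0.00794. On simulated counts for the main comparison over 12895 genes, 77% of genes changed by 1 log2 unit and 97% of those changed by 2 were recovered. In the same simulation 7 unchanged genes were called. Its counts came from a common mean and fitted spread per gene, so these shares do not cover mice that stand apart, such as control mouse 5. Libraries of the 10 mice held 21542958 to 28334251 counts.

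Genes were named by rule: Pparg and 7 exemplars; up to 10 called genes in each direction with the largest change and a mean of at least 5 CPM; in each list up to 2 called members in each direction, or else that with the smallest p; and the 5 smallest p for the KO-WT difference. Members and lists were chosen with earlier results of these data known. Of the cholesterol list, 4 members enter the counts and medians but are not reported here by name.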

Additional observations from a re-analysis of the deposited data

Results flagged for a closer look

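Over the 44 named genes and both KO groups (88 sets of 5 mice), a mouse stood far from the other 4 of its group in 14 sets. In independent sets of normally distributed values such a gap arises in about 1 of 20. The CPM were not transformed and the sets share mice, so that rate need not hold here. Control mouse 5 stood far from its group for 5 genes, with Aqp4 at 19.4, Cd36 at 79.5, Fos at 11.2 and Noct at 227 CPM as the highest value and Lrrc28 at 15.8 CPM as the lowest. Control mouse 3 was highest for Msmo1 at 139, Mvk at 24.6 and Slco1a4 at 86.1 CPM, and control mouse 4 for Derl3 at 30.5 CPM. HFD-Pio mouse 16 was highest for Hsd17b13 at 349 CPM and lowest for Ndufb3 at 28.2 and Vnn1 at 8.38 CPM. HFD-Pio mouse 20 was highest for Socs3 at 249 and Cidec at 5.25 CPM.

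For 23 named genes the effect of HFD-Pio differed between KO and WT mice in the test of the difference (edgeR, adjusted over all genes), the value being the KO minus the WT log2 fold change. Many genes were named by their KO effect or by this difference, so the count partly reflects how they were chosen. Genes of cholesterol synthesis had the higher effect in KO mice, with 3.24 for Sqle, 2.16 for Dhcr7, 2.10 for Nsdhl, 1.98 for Cyp51, 1.84 for Hmgcs1, 1.82 for Fdft1 and 1.6 for Mvk. Fmn1 (1.94) and Acsl3 (1.38) also had the higher effect in KO mice. Exemplar genes of PPARγ had the lower effect, with -9.60 for Cfd, -3.23 for Plin4, -3.00 for Mogat1, -2.94 for Cidec and -1.81 for Cd36. The same direction was found for Serpinb1a (-4.75), Cyp4a14 (-3.48), Vnn1 (-3.16), Aqp4 (-3.04), Pknox2 (-3.03), Cyp3a11 (-2.23), Sh3bgrl2 (-1.23), Irs1 (-1.03) and Dnajb4 (-0.82). Cfd was at or near 0 in KO mice, so its fitted difference depends on the prior count.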

How the results depend on the processing

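All 41 called genes kept their sign in every alternative in which they were tested, and Hmgcs1 and Tlcd2 stayed called in all 47, while 4732419C18Rik did in 11. The count of 41 became 589 with limma (314 higher, 275 lower), 100 with DESeq2 (55 and 45), 25 without the filter on low counts (17 and 8), 10 with KO Pio mouse 13 (9 and 1), 109 with KO mice only (56 and 53) and 24 with only the 10 mice compared (13 and 11). Leaving out 1 mouse gave 14 to 55 calls, with 14 without HFD-Pio mouse 16, 20 without 19, 23 without 18, 26 without 20, 19 without control mouse 1, 23 without control mouse 4, 44 without control mouse 5 and 55 without KO HFD mouse 9. Called cholesterol genes numbered 23 with limma, 7 with mouse 13, 3 with only the 10 mice and 10 to 18 without 1 mouse. HFD-Pio against HFD gave 9 calls with DESeq2, 2 with mouse 13 and 0 to 2 without 1 mouse (2 without KO HFD mouse 6, 7 or 8). The departure from additivity gave 45 with limma and 0 without any 1 mouse. The number of genes called for WT HFD-Pio minus WT control was 2109 with limma, 463 with mouse 13 and 847 to 1891 without 1 mouse, the lowest without WT HFD-Pio mouse 836. The KO-WT difference gave 1351 with limma, 507 with DESeq2, 91 with mouse 13 and 216 to 469 without 1 mouse, the lowest without HFD-Pio mouse 16. Uncalled values near 0 changed sign. The log2 fold change of Pparg became 0.0695 with limma and ran from -0.175 (without control mouse 3) to 0.131 (without control mouse 5) when 1 mouse was left out. Cd36 became 0.249 with limma and ran from -0.225 (without HFD-Pio mouse 16) to 0.451 (without control mouse 5), and Mogat1 from -0.623 (without HFD-Pio mouse 17) to 0.0991 (without control mouse 2). The cause of these changes was not tested. No paired analysis was possible because each mouse has its own number, shared with no mouse of another group.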
